A study of Mus musculus with 6 samples.

Results

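The 10 genes described here encode inflammatory cytokines and 1 of their antagonists: Il1a, Il1b, Il1rn, Il6, Tnf, Il15, Il18, Il33, Il34 and Csf1. They were chosen by name from the table of read counts per gene, which lists 55487 genes. All 10 were found, and all 10 passed the filter on low counts. The table holds RNA-seq of mammary epithelial cells (MECs) from virgin female BALB/c mice at 10 weeks of age, 3 of them WT and 3 IL-21isoTg, with 1 library per mouse. IL-21isoTg mice carry a transgene for a membrane-bound isoform of IL-21 that is expressed in T cells, under a promoter that is not named in the sources used here. Both genotypes were handled alike: the glands were digested with collagenase and other enzymes, and leukocytes, endothelium and fibroblasts were depleted with antibodies to CD45, CD31 and CD140a. The study measured Il1b, Il6 and Tnf in whole mammary tissue of older mice and found them higher in IL-21isoTg mice. To ask how Spp1, the osteopontin gene, is raised in MECs, it treated a cell line from an IL-21isoTg mammary tumor with such cytokines. IL-6 and TNF raised Spp1 in that line, and IL-21 raised Il6 and Tnf in splenocytes. The counts allow the question of whether the MEC preparation itself differed in cytokine transcripts between the genotypes at this age. Nothing in the labels says whether the 3 mice of a genotype shared a litter or an experiment, so p-values measure the spread between these mice only.

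Inflammatory cytokines are small secreted proteins with which cells of a tissue signal injury or infection. IL-1α and IL-1β bind the same receptor, IL1R1, and IL-1 receptor antagonist (Il1rn) occupies that receptor without a signal. IL-33 and IL-18 belong to the same family. Signals from IL-1 and TNF run through NF-κB, those of IL-6 through STAT3. IL-15 sustains natural killer cells and memory T cells, and CSF1 and IL-34 are the ligands of the macrophage receptor CSF1R. In the mammary gland, epithelial cells and macrophages both make such factors, and CSF1 is known for recruiting the macrophages that accompany duct growth.

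Total counts per library were between 15902886 and 25719244, and a floor of 3 counts, which covers counting error only, was at 0.112 to 0.280 CPM. CPM here are counts scaled to a common library size with TMM normalization, which also allows for unequal composition. Epithelial markers were high in every library, with summed luminal markers (9 genes, led by Krt8 and Krt18) between 5159 and 8546 CPM and summed basal markers (8 genes, led by Krt5 and Krt14) between 1437 and 2969 CPM. Despite the depletion, summed fibroblast markers (8 genes) had 1999 to 3539 CPM in the WT and 4414 to 5088 CPM in the IL-21isoTg mice. In every library they were above the basal and below the luminal sum. Levels given here are thus those of the whole preparation. Of 13 salivary gland genes, led by Amy1 and Bpifa2, 11 were tested and 0 called, and the list took 4.62% to 37.4% of the counts, most in IL-21isoTg mouse 3. Il21, the gene whose isoform the transgene encodes, was read 0, 0 and 37 times in WT MECs and 795, 216 and 131 times in IL-21isoTg MECs. WT mouse 3 was thus not free of Il21 reads. Counts per gene do not separate the transgene from the mouse's own Il21, and the source of these reads was not tested.

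No cytokine gene passed the test between the genotypes. At an adjusted p under 0.05 in edgeR's quasi-likelihood test, 0 of the 10 genes were higher or lower in IL-21isoTg MECs, against 0% of the 17165 genes tested. The 0 called that is given for other lists therefore equals the share over all genes. At an unadjusted p under 0.05 there were again 0 of 10, against 5.82% of all genes tested (3.19% higher and 2.63% lower). The Wald test of DESeq2, limma-voom and the likelihood ratio test of edgeR also called 0 of the 10, against 0.467%, 0% and 0.379% of all genes. The 10 log2 fold changes (IL-21isoTg minus WT) ran from -1.50 to 0.37, 4 of them above and 6 below 0, with a median of -0.17 beside -0.02 over all genes tested. Adjusted p-values in edgeR's test were between 0.809 and 0.982. With 3 mice per genotype the precision differed widely between genes, and the 95% intervals were narrowest for Il6 and Tnf and widest for Il1a and Il1rn. In such bulk samples, fewer cells of a type and less RNA per cell cannot be told apart.

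**Figure D1:**
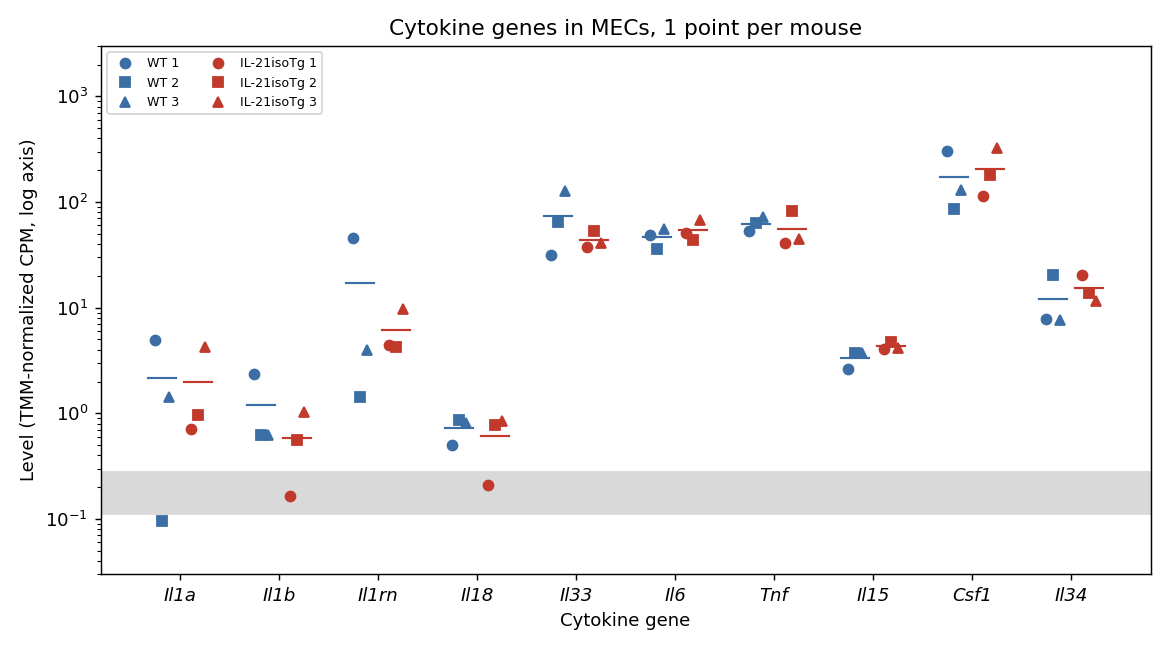
Level of each cytokine gene in each mouse, as TMM-normalized CPM on a log axis (blue, WT; red, IL-21isoTg; bars, group means; grey band, 3 counts in the 6 libraries). The 6 mice lie closest together for Il15, Il6 and Tnf (highest over lowest 1.79, 1.89 and 2.01), while Il1rn of WT mouse 1 (45.7 CPM) lies far above the other mice.

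To rank the genes, levels were divided by the length of their merged exons, giving CPM per kb, and averaged over the 6 mice. Tnf (36.1 ± 9.67 CPM per kb, SD, n = 6) and Csf1 (36.0 ± 19.2) came first, and Tnf was above Csf1 in 4 of 6 mice. Il6 (20.8 ± 4.47) and Il33 (20.5 ± 12.1) followed, and Il6 was above Il33 in 3 of 6 mice. Csf1 was above Il6 in 6 of 6 mice, although their ranges overlapped. The next step was the only one between neighbours whose ranges did not overlap: Il33 was above Il34 (6.97 ± 2.94 CPM per kb) in 6 of 6 mice, with a lowest Il33 of 11 and a highest Il34 of 10.4. Il1rn (2.09 ± 3.06) owed its place above Il15 (1.69 ± 0.309) to WT mouse 1, and was above Il15 in 1 of 6 mice. Il1a (1.05 ± 1.02), Il18 (0.647 ± 0.254) and Il1b (0.468 ± 0.400) were the lowest, and Il1a was above Il18 in 3 of 6 mice. Il18 was above Il1b in 5 of 6 mice, with overlapping ranges. Per length, the mean of Tnf was 77.2 times that of Il1b. Transcripts of TNF, CSF1, IL-6 and IL-33 thus led in these MEC preparations. That of IL-1β, a classical product of activated myeloid cells, had the lowest mean per length of the 10.

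The stretches before the gene starts are shown for 4 genes, Il6 and Tnf as the cytokines the study turned to, and Il1a and Il1rn as the genes that varied most between mice of a genotype. Each is the 250 bases upstream of a RefSeq start on GRCm38, read 5′ to 3′ on the gene's strand. Capitals mark matches, on either strand, to the κB motif (GGG and CC separated by any 5 bases), the AP-1 motif TGANTCA and the C/EBP motif TTGCNNAA, where overlapping matches run together. For Il1rn the most upstream of 3 starts is shown, and 7 bases of its window lie in an annotated exon.
Il6, chr5:30012864-30013113, plus strand: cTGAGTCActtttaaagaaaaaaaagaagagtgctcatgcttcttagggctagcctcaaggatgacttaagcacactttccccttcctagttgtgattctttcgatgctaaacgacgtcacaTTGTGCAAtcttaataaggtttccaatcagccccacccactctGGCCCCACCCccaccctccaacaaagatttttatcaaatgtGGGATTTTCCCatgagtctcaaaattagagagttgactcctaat
Tnf, chr17:35202008-35202257, minus strand: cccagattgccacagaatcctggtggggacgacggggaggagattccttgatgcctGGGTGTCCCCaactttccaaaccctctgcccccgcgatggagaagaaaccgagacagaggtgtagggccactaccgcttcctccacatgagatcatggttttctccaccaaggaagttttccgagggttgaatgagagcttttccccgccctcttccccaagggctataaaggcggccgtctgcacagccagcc
Il1a, chr2:129309973-129310222, minus strand: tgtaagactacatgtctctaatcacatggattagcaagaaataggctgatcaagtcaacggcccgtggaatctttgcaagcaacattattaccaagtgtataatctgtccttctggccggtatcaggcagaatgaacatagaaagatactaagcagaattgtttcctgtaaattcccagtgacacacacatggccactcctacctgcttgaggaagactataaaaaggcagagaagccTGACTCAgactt
Il1rn, chr2:24336610-24336859, plus strand: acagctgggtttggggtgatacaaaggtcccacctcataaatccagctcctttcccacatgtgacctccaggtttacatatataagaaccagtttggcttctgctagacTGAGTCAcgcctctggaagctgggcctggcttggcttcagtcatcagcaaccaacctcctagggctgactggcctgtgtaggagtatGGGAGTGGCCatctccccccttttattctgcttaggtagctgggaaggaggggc
The Il6 window held an AP-1 match 249 to 243 bases before the start, a C/EBP match 128 to 121 bases before it, and κB matches 85 to 76 and 44 to 34 bases before it, the latter made of a match on each strand. The Tnf window held 1 κB match, 194 to 185 bases before the start. Il1a had 1 AP-1 match, 12 to 6 bases before the start, and Il1rn an AP-1 match 141 to 135 and a κB match 54 to 45 bases before the start. RefSeq entries were found for 8 of the 10 genes (11 starts), and κB, AP-1 and C/EBP matches occurred at 5, 3 and 2 of the 11. Among all 32851 promoter windows of this length, 45.8%, 6.75% and 9.56% held them. A match describes the letters only.

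IL-6 is a cytokine of the acute inflammatory response that signals through STAT3. Il6 (ENSMUSG00000025746) is on chromosome 5 (GRCm38, 30013114 to 30019981, plus strand). Its level was 48.8, 36.0 and 55.3 CPM in WT MECs and 50.8, 43.5 and 68.0 CPM in IL-21isoTg MECs. The genotypes overlapped and the highest mouse exceeded the lowest 1.89-fold. The means were 46.7 ± 9.80 and 54.1 ± 12.6 CPM (SD, n = 3 each). The log2 fold change was 0.21 (standard error, SE, 0.23, 95% interval -0.31 to 0.73, adjusted p = 0.879 from edgeR's fit). The interval reaches a 1.66-fold higher level in IL-21isoTg MECs.

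TNF is the other early inflammatory cytokine of the set, made as a membrane protein and shed by ADAM17. Tnf (ENSMUSG00000024401; chromosome 17, 35199381 to 35202007, minus strand) had 53.4, 62.9 and 71.5 CPM in the WT mice and 40.7, 81.8 and 45.0 CPM in the IL-21isoTg mice. The WT mice lay inside the range of the IL-21isoTg mice, which held both the lowest and the highest value. The means were 62.6 ± 9.07 and 55.8 ± 22.6 CPM, with a log2 fold change of -0.16 (SE 0.28, 95% interval -0.80 to 0.48, adjusted p = 0.928 from edgeR's test). A level in IL-21isoTg MECs above 1.39 times that in WT MECs lies outside this interval.

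**Figure D2:**
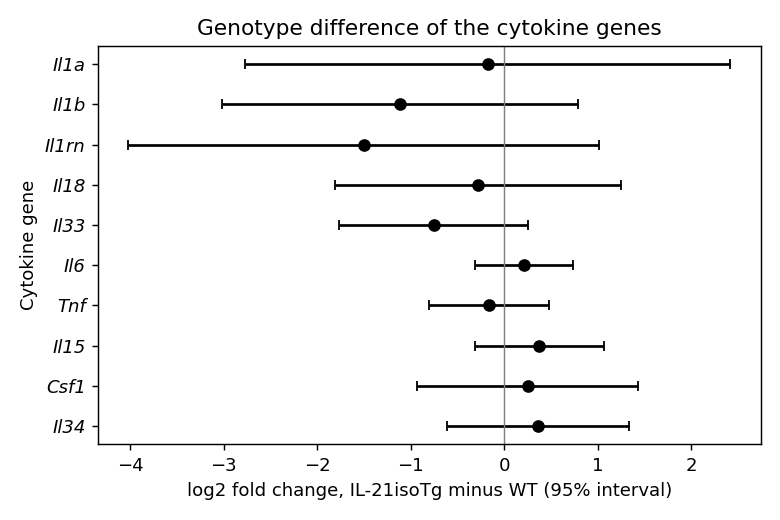
Log2 fold change of each cytokine gene, IL-21isoTg minus WT (points), with its 95% interval from edgeR's quasi-likelihood fit (bars). All 10 intervals include 0, and those of Il6 (-0.31 to 0.73) and Tnf (-0.80 to 0.48) are narrow beside that of Il1rn (-4.02 to 1.01).

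Among the 10 genes, the IL-1 receptor antagonist Il1rn and the agonist Il1a varied most between mice of the same genotype. Il1rn (ENSMUSG00000026981; chromosome 2, 24336853 to 24351494, plus strand) had 1014, 30 and 89 counts in WT MECs against 107, 113 and 104 in IL-21isoTg MECs, or 45.7, 1.44 and 4.0 against 4.45, 4.21 and 9.70 CPM. WT mouse 1 thus stood far above the other 5 mice, and the WT mice differed 31.7-fold among themselves against 2.31-fold among the IL-21isoTg mice. The spread of Il1rn within genotypes, as the pooled SD of log2(CPM + 0.5), was larger than that of 99.7% of the genes tested. The fitted log2 fold change of -1.50 (SE 1.09, adjusted p = 0.829 from edgeR's test) turned to 1.16 without WT mouse 1 (adjusted p = 0.732). Its sign thus rested on 1 mouse.

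Il1a (ENSMUSG00000027399; chromosome 2, 129299610 to 129309972, minus strand) encodes IL-1α, which epithelial cells hold preformed and release on damage. It had 109, 2 and 32 counts in WT MECs against 17, 26 and 46 in IL-21isoTg MECs, or 4.92, 0.0961 and 1.44 against 0.707, 0.968 and 4.29 CPM. WT mouse 2 was under the floor of 3 counts, and the highest values were those of WT mouse 1 and IL-21isoTg mouse 3. The log2 fold change was -0.18 (SE 1.12, 95% interval -2.77 to 2.42, adjusted p = 0.982), -1.35 without IL-21isoTg mouse 3 and 1.32 without WT mouse 1. Gm14023, an antisense transcript that shares 222 bp with the Il1a exons, had 1 to 34 counts per mouse, and as the sources used here do not say whether counting used the strand, reads of the pair cannot be told apart.

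Il1b (ENSMUSG00000027398; chromosome 2, 129364570 to 129371139, minus strand) encodes IL-1β, which is made as a precursor that caspase-1 cleaves. The WT mice had 52, 13 and 14 counts, the IL-21isoTg mice 4, 15 and 11. In CPM these were 2.35, 0.625 and 0.630 against 0.166, 0.558 and 1.03, again with WT mouse 1 on top and with overlapping genotypes. The log2 fold change was -1.12 (SE 0.82, 95% interval -3.02 to 0.79, adjusted p = 0.829) and shrank to -0.17 without WT mouse 1. WT mouse 1 was the highest mouse for 3 of the 10 genes, and these were Il1a, Il1b and Il1rn. The ratio of Il1rn to summed Il1a and Il1b counts was 6.30, 2.00 and 1.93 in WT MECs and 5.10, 2.76 and 1.82 in IL-21isoTg MECs, and the genotypes overlapped (exact permutation test of the log2 ratio, two-sided, p = 1). This ratio is of reads and not per length, as the merged exons of Il1rn (5535 bp) are longer than those of Il1a (1974 bp) and Il1b (1907 bp).

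Markers of cells that make IL-1 were read in the same libraries. Of 7 neutrophil markers 1 passed the filter, S100a8, with 1 to 29 counts per mouse. S100a9 had 0 to 5 counts and Retnlg 0 in all mice, and the summed list was 2.03 CPM in WT mouse 1 and 0.0480 to 1.21 CPM in the other mice. Of 12 macrophage markers 9 were tested, and 0 of them were called. Their median log2 fold change was 0.54. In 3 of the 9 the genotypes did not overlap, all higher in IL-21isoTg MECs, against 5.54% of all genes tested. The summed list was 169 to 235 CPM in the WT and 160 to 378 CPM in the IL-21isoTg mice, most of it Cd14. Adgre1 had 0 to 26 counts, Cd68 44 to 138 and Itgam 0 to 3. The keratinocyte markers (7 genes, 6 tested, 0 called), led by Krt1 and Krt10, summed to 12.1, 366 and 9.85 CPM in the WT and 158, 10.6 and 187 CPM in the IL-21isoTg mice, so WT mouse 1, highest for all 3 genes of the IL-1 arm, was low in them, as were WT mouse 3 and IL-21isoTg mouse 2. Whether other cells had a part in the IL-1 values of WT mouse 1 was not tested.

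**Figure D3:**
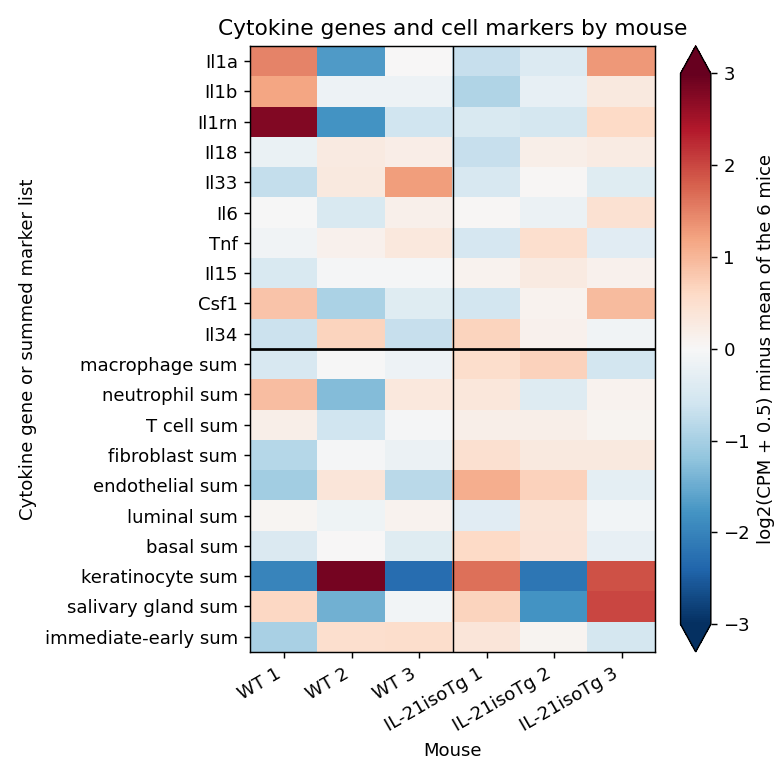
Levels of the cytokine genes (above the line) and summed levels of marker lists (below it) in each mouse, as log2(CPM + 0.5) minus the mean of the 6 mice (color; red higher, blue lower). Among the cytokine genes the darkest cell is Il1rn in WT mouse 1, and Csf1 is high in the 2 libraries, WT 1 and IL-21isoTg 3, with the lowest immediate-early sums.

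IL-33 and IL-18 are the other members of the IL-1 family examined. IL-33 is kept in the nucleus of epithelial and stromal cells as an alarm signal. Il33 (ENSMUSG00000024810; chromosome 19, 29925114 to 29960718, plus strand) had 31.8, 64.5 and 126.1 CPM in the WT mice and 37.5, 53.6 and 40.8 CPM in the IL-21isoTg mice. The WT mice spanned 3.97-fold and enclosed all IL-21isoTg mice, which spanned 1.43-fold. The means were 74.1 ± 47.9 and 44.0 ± 8.51 CPM (SD, n = 3 each), with a log2 fold change of -0.75 (SE 0.44, 95% interval -1.76 to 0.26) and the lowest adjusted p of the 10 genes, 0.809 in edgeR's test. Without WT mouse 3, the WT mouse with Il21 counts, the log2 fold change was -0.13. Without WT mouse 1, the lowest WT mouse, it was -1.10 (unadjusted p = 0.0067, adjusted p = 0.606 from edgeR's test). Summed fibroblast markers (8 genes, all tested, 0 called), led by Pdgfra and Col1a1, had 1999, 3539 and 3195 CPM in the WT mice. In the IL-21isoTg mice they had 5088, 4414 and 4432 CPM, and their part in the Il33 values was not tested.

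Il18 (ENSMUSG00000039217; chromosome 9, 50554827 to 50581840, plus strand) encodes an epithelial cytokine that drives interferon-γ and, like IL-1β, is cleaved by caspase-1. It rested on 11, 18 and 18 counts in WT MECs against 5, 21 and 9 in IL-21isoTg MECs, or 0.496, 0.865 and 0.810 against 0.208, 0.782 and 0.839 CPM. IL-21isoTg mouse 1 was the lowest, followed by WT mouse 1, and the others lay between 0.782 and 0.865 CPM. The log2 fold change was -0.28 (SE 0.66, 95% interval -1.81 to 1.25, adjusted p = 0.951 from edgeR's test). The interval leaves a wide range of differences in either direction.

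IL-15 is displayed on the surface of the cell that makes it, bound to IL15RA, and feeds natural killer cells and memory T cells. Il15 (ENSMUSG00000031712; chromosome 8, 82331632 to 82403222, minus strand) was the only gene of the 10 whose genotypes did not overlap, with 2.62, 3.70 and 3.69 CPM in the WT mice and 4.07, 4.69 and 4.20 CPM in the IL-21isoTg mice. Such a gap was seen in the higher direction in 5.54% of all genes tested, in the lower direction in 6.54% and in either in 12.1%, so 1 of 10 genes is near this background. The means were 3.34 ± 0.623 and 4.32 ± 0.326 CPM (SD, n = 3 each; exact permutation test, two-sided, p = 0.1, the smallest p that 3 against 3 allows). The log2 fold change was 0.37 (SE 0.30, 95% interval -0.31 to 1.06, adjusted p = 0.841 from edgeR's test), and it stayed between 0.24 and 0.46 with each mouse left out. Its counts of 45 to 126 per mouse were few.

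CSF1 and IL-34 share the receptor CSF1R, on which macrophages depend. Csf1 (ENSMUSG00000014599; chromosome 3, 107741048 to 107760469, minus strand) had 304, 86.7 and 130.5 CPM in the WT mice and 115.0, 180.4 and 325 CPM in the IL-21isoTg mice. WT mouse 1 and IL-21isoTg mouse 3 stood above the other 4 mice, 1 of each genotype. The means were 174 ± 115 and 207 ± 108 CPM (SD, n = 3 each), with a log2 fold change of 0.25 (SE 0.51, 95% interval -0.93 to 1.43, adjusted p = 0.941 from edgeR's test). It was -0.23 without IL-21isoTg mouse 3 and 0.94 without WT mouse 1. The same 2 libraries had the lowest sums of 12 immediate-early and heat-shock genes, such as Fos and Fosb, that rise during tissue digestion: 7861 CPM in WT mouse 1 and 10758 CPM in IL-21isoTg mouse 3, against 16320 to 22210 CPM in the others. All 12 were tested and 0 were called between the genotypes. Salivary gland genes took 21.2% of the counts in WT mouse 1 and 37.4% in IL-21isoTg mouse 3. They took 20.7% in IL-21isoTg mouse 1 and 4.62% to 14.5% in the others. The part of digestion or of salivary gland reads in the Csf1 values was not tested.

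Il34 (ENSMUSG00000031750; chromosome 8, 110741829 to 110805924, minus strand) had 7.89, 20.5 and 7.6 CPM in the WT mice and 20.4, 13.9 and 11.7 CPM in the IL-21isoTg mice. The genotypes overlapped, with WT mouse 2 and IL-21isoTg mouse 1 highest and nearly equal. The means were 12.0 ± 7.35 and 15.3 ± 4.55 CPM, with a log2 fold change of 0.36 (SE 0.42, 95% interval -0.61 to 1.33, adjusted p = 0.889 from edgeR's test), which was 0.99 without WT mouse 2, 0.10 without IL-21isoTg mouse 1, 0.14 without WT mouse 1 and 0.12 without WT mouse 3. Csf1 and Il34 differed in which mice were high, although both encode ligands of CSF1R. Antisense transcripts Gm15894 and Gm15895 share 22 and 75 bp with Il34 exons and had 3 to 28 counts per mouse beside 125 to 491 for Il34. Il1bos, antisense to Il1b, shares 25 bp with it and had 0 to 3 counts.

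**Figure D4:**
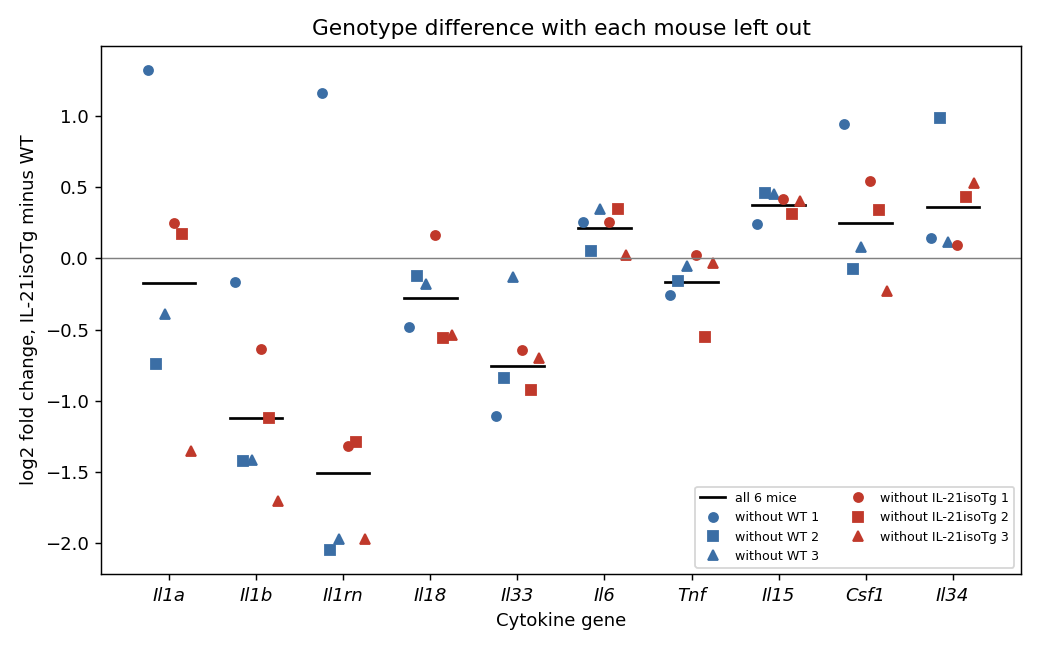
Log2 fold change of each cytokine gene, IL-21isoTg minus WT, with all 6 mice (black bars) and with each mouse left out (blue, a WT mouse left out; red, an IL-21isoTg mouse). Il1a and Il1rn move from below to above 0 without WT mouse 1 (1.32 and 1.16), whereas Il6 stays between 0.02 and 0.35 and Il15 between 0.24 and 0.46.

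Likeness of pattern was measured on log2(CPM + 0.5), as the SD over the 6 mice of each tested gene minus a cytokine gene. The closest gene is named. Because of the added 0.5 CPM, a small SD need not mean a constant ratio at low levels, such as those of Il1a, Il1b and Il18. For Il1rn it was Fam167a (SD 0.30, beside an SD of 1.56 for Il1rn itself), with 58.5 CPM in WT mouse 1 and 3.75 to 18.6 CPM in the other mice. For Il1a it was Il1rl1 (SD 0.33 beside 1.22), the receptor gene of IL-33, with 5.73 and 5.13 CPM in WT mouse 1 and IL-21isoTg mouse 3 and 0.0480 to 1.08 CPM in the others. Il1b was closest to Tcf7 (0.10 beside 0.70) and Csf1 to Pvr (0.10 beside 0.77), which had 91.3 and 83.2 CPM in the 2 libraries high in Csf1 and 23.1 to 45.5 CPM elsewhere. Il33 was closest to Hspa1b (0.23 beside 0.71), a heat-shock gene that is 1 of those 12. The other closest genes were Gm15943 for Il6, Far1os for Tnf, Lss for Il15, Gm37756 for Il18 and C920021L13Rik for Il34 (SD 0.04 to 0.10). With 17165 candidates and 6 mice, these are descriptions.

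The receptors and binding proteins of these cytokines were measured in the same bulk libraries. All 17 listed genes passed the filter and 0 were called in edgeR's test. Their median log2 fold change was -0.14, with 6 above and 11 below 0. At an unadjusted p under 0.05, 2 were higher (3.19% of all genes) and 1 lower (2.63%), and the same 3 were the genes whose genotypes did not overlap, against 5.54% of all genes higher and 6.54% lower. Il6ra, the ligand-binding chain of the IL-6 receptor, had 34.2, 26.4 and 22.6 CPM in the WT and 39.8, 41.7 and 41.2 CPM in the IL-21isoTg mice (log2 fold change 0.56, SE 0.19, adjusted p = 0.809). Il2rg, the chain shared by the receptors of IL-15 and IL-21, had 2.48, 1.49 and 1.66 against 7.40, 3.72 and 2.89 CPM (1.32, SE 0.45, adjusted p = 0.809). T cells carry Il2rg, and their markers (8 genes, 7 tested, 0 called), led by Cd3d and Cd3e, summed to 6.63 to 11.6 CPM in the WT and 10.9 to 11.7 CPM in the IL-21isoTg mice, whose part in the Il2rg values was not tested. Ptprz1, another receptor of IL-34, had 8.66, 16.3 and 12.5 against 5.74, 7.52 and 2.70 CPM (-1.21, SE 0.40, adjusted p = 0.809).

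The signalling chains for IL-6 and TNF were well expressed in both genotypes. Il6st, which encodes the signal-transducing chain gp130, had 217 to 257 CPM over the 6 mice, and Tnfrsf1a, the main TNF receptor, 94.9 to 132 CPM. Their log2 fold changes were 0.08 and 0.18 with 95% intervals of -0.28 to 0.44 and -0.18 to 0.55. Tnfrsf1b, the leukocyte-rich TNF receptor, had 6.78 to 27.9 CPM. For IL-1, Il1r1 lay between 33.3 and 42.4 CPM (log2 fold change -0.11, 95% interval -0.47 to 0.25), its partner Il1rap between 11.9 and 24.7, and the decoy Il1r2 between 1.13 and 5.57 CPM. Il18r1 had 5.70 to 14.8 CPM, its partner Il18rap 0.625 to 9.56 CPM with WT mouse 1 highest, and the IL-18 inhibitor Il18bp 4.36 to 9.37 CPM. The receptor chain Il15ra had 18.8 to 42.3 CPM and Il2rb 0.653 to 2.26 CPM. Csf1r, a macrophage gene, had 7.83 to 13.6 CPM, and Sdc1, a syndecan that can bind IL-34, 91.0 to 309 CPM. Receptor chains for IL-6, TNF and IL-1 were therefore present well above the floor of 3 counts in every library, whatever its genotype. Which cells of the preparation carried them was not tested.

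Among genes that mature or release the cytokines, inflammasome parts and proteases, none passed the test. Of 13 listed, 11 were tested and 0 were called, with a median log2 fold change of -0.13 (4 above and 7 below 0) and 0 under an unadjusted p of 0.05. Nlrp6 and Nlrc4, inflammasome sensors, did not pass the filter, with at most 5 and 16 counts. The 3 genes with the smallest p were Casp4, a caspase that senses bacterial lipopolysaccharide, Casp8 and Nlrp3, with log2 fold changes of 0.35, -0.26 and -1.0 (adjusted p = 0.820, 0.825 and 0.844). Casp1, which cleaves IL-1β and IL-18, had 3.46 to 6.20 CPM, and Adam17, which sheds TNF, 34.9 to 48.8 CPM.

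Of 18 signalling genes between the receptors and NF-κB, all were tested and 0 were called, with a median log2 fold change of -0.11 (7 above and 11 below 0) and 0 under an unadjusted p of 0.05. The 3 with the smallest p were Map3k7 and Irak4, kinases of the IL-1 pathway, and Ripk1, a kinase of the TNF pathway. Map3k7 had 64.1, 42.5 and 50.4 CPM in the WT and 41.9, 39.2 and 42.3 CPM in the IL-21isoTg mice (log2 fold change -0.35, adjusted p = 0.809 from edgeR's test). Ripk1 went the other way, with 38.5, 46.8 and 48.3 against 56.4, 57.7 and 49.8 CPM (0.29, adjusted p = 0.809), and Irak4 had -0.27 (adjusted p = 0.820). In these 3 of the 18 genes the genotypes did not overlap (1 higher and 2 lower), against 12.1% of all genes tested.

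Genes that IL-1, TNF or IL-6 are known to induce were tested as a list of 19, all of which passed the filter and 0 of which were called by edgeR's quasi-likelihood test. The median log2 fold change was 0.24, with 15 above and 4 below 0, and 3 were higher at an unadjusted p under 0.05, against 3.19% of all genes tested. These 3 were Saa1, an acute-phase protein, Cxcl2, a neutrophil chemokine, and Icam1, a leukocyte adhesion molecule. Saa1 had 1.31, 0.577 and 7.02 CPM in the WT mice and 52.6, 59.1 and 16.9 CPM in the IL-21isoTg mice, so the genotypes did not overlap. Its log2 fold change was 3.85 (SE 0.88, 95% interval 1.81 to 5.89, adjusted p = 0.670), and edgeR's likelihood ratio test alone among the alternatives called it (adjusted p = 0.0086). With each mouse left out it ran from 3.37 (without WT mouse 2) to 5.5 (without WT mouse 3, adjusted p = 0.206). Saa1 has a near-identical neighbour, Saa2, with which reads could be split. Summed fibroblast markers, given beside Il33, were higher in every IL-21isoTg mouse than in any WT mouse, and their part in the values of Saa1, Cxcl2 and Icam1 was not tested.

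Cxcl2 had 62.3, 50.1 and 73.2 CPM in the WT and 62.2, 164 and 141 CPM in the IL-21isoTg mice, with IL-21isoTg mouse 1 among the WT values (log2 fold change 0.99, SE 0.34, adjusted p = 0.809 from edgeR's test). Icam1 had 415, 283 and 280 against 460, 488 and 432 CPM (0.50, SE 0.21, adjusted p = 0.809). The genotypes did not overlap in 4 of the 19 genes, all higher in IL-21isoTg MECs, against 5.54% of all genes tested. Nfkbia and Tnfaip3, the feedback inhibitors of NF-κB, had log2 fold changes of -0.08 and 0.31 and levels of 754 to 1041 and 243 to 405 CPM, and Socs3, the feedback inhibitor of STAT3, had 0.10 with 167.5 to 748 CPM. Endothelial markers (5 genes, all tested, 0 called), led by Pecam1 and Cdh5, of cells that also make Icam1, summed to 55.7 to 148.5 CPM in the WT and 95.2 to 248 CPM in the IL-21isoTg mice, and their part in the Icam1 values was not tested.

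**Figure D5:**
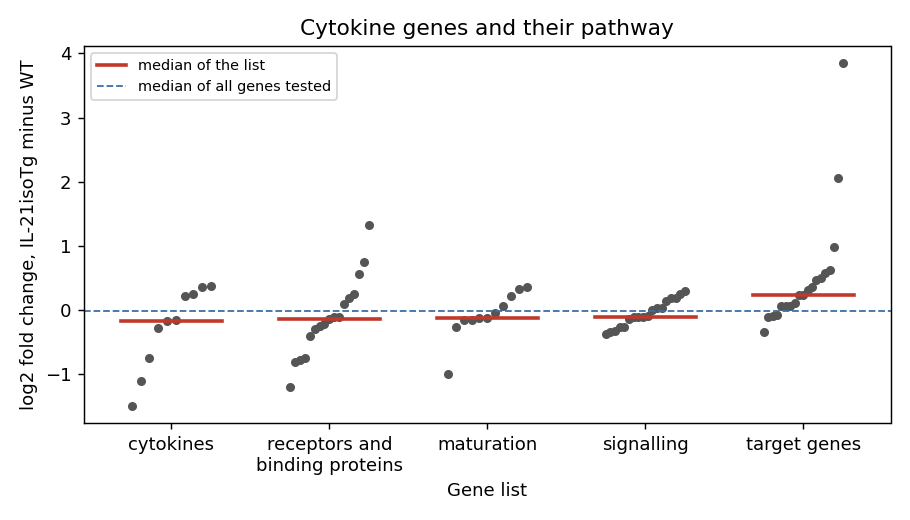
Log2 fold change, IL-21isoTg minus WT, of every tested gene (points) in the cytokine list and the 4 lists of its pathway, with list medians (red) and the median of all genes tested (dashed). The medians of the cytokines, receptors, maturation and signalling genes lie between -0.17 and -0.11 and that of the target genes at 0.24, with Saa1 at 3.85 the highest point.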

How the data were processed

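Poly(A)-selected directional libraries of MECs from 3 WT and 3 IL-21isoTg mice were sequenced. The authors deposited raw read counts per gene and library. Their processing notes name FastQC 0.11.7, Trimmomatic 0.38, HISAT2 2.1.0, SAMtools 1.9, featureCounts 1.6.3, DESeq2 1.24.0 and the build mm10, without settings. Tables of normalized values and of the authors' fold changes and p-values were not used. Genes were filtered with filterByExpr (minimum count 10, total 15), scaled with TMM and compared with edgeR 4.0.16 (quasi-likelihood, robust, genotype as the only term) in R 4.3.3, with Benjamini-Hochberg adjustment over 17165 genes. DESeq2 1.42.0 and limma 3.58.1 served as alternatives, beside other scalings, filters, the replicate block and leaving out each mouse. Fits were tested on simulated data. Exact permutation tests of single values cannot go below p = 0.1 with 3 mice against 3. No replicate pair agreed within sampling noise. Positions and exon lengths came from GENCODE M21 (GRCm38), promoters from RefSeq. The cytokines and gene lists were chosen with earlier results of these data known. Named genes are the 10 cytokines, their receptors, and the 3 genes of each other pathway list with the smallest p. The 2 leading markers of each marker list are also named. The gene with the steadiest ratio of CPM + 0.5 to each cytokine is given as well. Casp1, Adam17, Nfkbia, Tnfaip3, Socs3 and genes that overlap a cytokine gene were named after their values were seen, as were Cd14, Retnlg and Itgam.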

Additional observations from a re-analysis of the deposited data

How the results depend on the processing

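The 10 cytokine genes had 0 calls under each of the 16 alternatives, while over all genes 0 were called with all mice in the quasi-likelihood test, 80 with DESeq2, 65 with edgeR's likelihood ratio test, 14 without a filter and 6 without WT mouse 3. In the pathway lists, 1 gene (Saa1) was called with the likelihood ratio test, and 0 otherwise. Il1a turned to 0.27 with limma-voom and 0.59 with the replicate block. Il1rl1 turned to 0.25 and 0.95 in these fits, and Il18rap to 0.41 with the replicate block. The cause was not tested. Correlations of same-numbered mice, on levels centred within each genotype, were -0.26, 0.10 and -0.06, and the block changed no call. With so few mice these values cannot decide whether same-numbered mice belonged together. Of 97 log2 fold changes of the cytokine genes under the alternatives that kept all mice, 95 kept their direction, among them Il1rn, which moved from -1.50 to -0.36 with limma-voom and to -0.0030 with the replicate block. With each mouse left out, log2 fold changes crossed 0 for Il1a (-1.35 to 1.32), Il1rn (-2.05 to 1.16), Tnf (-0.55 to 0.023), Il18 (-0.56 to 0.16), Csf1 (-0.23 to 0.94), Il1rap (-0.45 to 0.10), Il1rl1 (-1.71 to 1.94), Il18r1 (-0.52 to 0.21), Il18rap (-1.28 to 1.57), Tnfrsf1b (-0.70 to 0.10), Il15ra (-0.51 to 0.10) and Csf1r (-0.28 to 0.15). Requiring 10 counts in every mouse left 7 cytokine genes to test. Il1a, Il1b and Il18 rest on 2 to 109 counts per mouse, and whether depth or the spread between mice set their wide intervals was not tested.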
